A study of Mus musculus with 2 samples.

Results

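Gse1, Tnrc18 and Bahcc1 encode chromatin proteins, and they were chosen by measured values: their gene windows lie in or across 3 of the 5 autosomal 100 kb bins with the highest 5-hydroxymethylcytosine (5hmC) ratio. They are 3 genes set against 23419 such bins with at least 50 input fragments. The windows on mm9 are chromosome 8, 122752001 to 123105500 for Gse1 (353.5 kb), chromosome 5, 143486001 to 143579500 for Tnrc18 (93.5 kb), and chromosome 11, 120094001 to 120154000 for Bahcc1 (60 kb). Gse1 and Bahcc1 are transcribed towards higher coordinates and Tnrc18 towards lower ones, per the RefSeq promoter table.

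The DNA came from whole kidneys of male C57BL/6 mice aged 6 weeks, a wild-type inbred strain with no treatment named in the labels. An antibody against 5hmC enriched 1 library (hydroxymethylated DNA immunoprecipitation, hMeDIP), and 1 input library had no antibody step. How many animals gave the DNA is not stated in the labels. A ratio below divides a region's share of all hMeDIP fragments by its share of all input fragments, so that 1 is the mean of all mapped fragments. It comes with a 95% interval that covers counting error only, and without molecular identifiers in the files, fragments may not all be independent molecules. With 1 library a group there was no replicate and no test, and since this same ratio chose the genes, all values of it are descriptions. Whole kidney mixes many cell types, and more cells that carry the mark cannot be told apart from more of the mark in each cell. The files hold no expression values, so the tissue label was not checked against marker genes.

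5hmC is made when TET enzymes oxidise 5-methylcytosine, mostly at CpG sites, and it is found mainly in the bodies of active genes and at enhancers, while CpG-dense promoters of active genes usually lack both marks. GSE1 is a coiled-coil protein found in complexes with the demethylase LSD1, CoREST and histone deacetylases. TNRC18 and BAHCC1 are large related proteins that each carry a bromo-adjacent homology (BAH) domain, a fold that binds modified histone tails, and the BAH domains of both have been linked to reading repressive histone methylation.

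The data bear on the starts of Tnrc18 and Bahcc1, where fragments of both libraries were scarce (below), so the 250 bases before each start are shown. They come from RefSeq on GRCm38.p6 and were not placed on the mm9 profile. For Tnrc18 and Bahcc1 the 5′ end of the window stands for the gene start there. Capitals mark CpG sites, the main substrate of the mark.

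Tnrc18 promoter, GRCm38.p6 chr5:142817663-142817912, minus strand: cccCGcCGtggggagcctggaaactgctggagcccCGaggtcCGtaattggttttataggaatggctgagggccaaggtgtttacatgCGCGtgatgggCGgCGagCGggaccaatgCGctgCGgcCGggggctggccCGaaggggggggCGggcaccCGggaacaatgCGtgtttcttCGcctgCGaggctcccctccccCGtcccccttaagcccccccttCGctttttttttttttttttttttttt
Bahcc1 promoter, GRCm38.p6 chr11:120232697-120232946, plus strand: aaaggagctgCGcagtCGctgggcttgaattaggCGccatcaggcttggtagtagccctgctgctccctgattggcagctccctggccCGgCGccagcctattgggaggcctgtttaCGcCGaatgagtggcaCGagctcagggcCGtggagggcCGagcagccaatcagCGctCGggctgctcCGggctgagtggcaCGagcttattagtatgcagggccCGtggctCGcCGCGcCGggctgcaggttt

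The Tnrc18 stretch holds 20 CpG sites and the Bahcc1 stretch 19, against a median of 6 over 32851 promoter stretches of this length. Of those stretches, 17.9% hold at least 20 and 19.7% at least 19. The table gives 3 starts for Gse1, with 13, 15 and 32 CpG sites. At least as many are held by 31.5%, 27.3% and 4.58% of the stretches.

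There were 11424027 fragments in the hMeDIP library and 8316507 in the input. Autosomes had 4.55 hMeDIP and 3.27 input fragments per kb. Input over the genes was somewhat lower, at 3.15 per kb in Gse1, 2.57 in Bahcc1 and 2.98 in the part of Tnrc18 that held fragments. The hMeDIP library had 21.2, 26.1 and 26.5 per kb there, so most of each ratio below lies in the antibody library.

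One part of Tnrc18 could not be measured. No fragment of either library lay between 143206837 and 143505632 on chromosome 5, a stretch of 299 kb that takes in the 19.6 kb at the 3′ end of the window (21.0% of it) and all of its downstream flank. The lines of both position files and of the peak list are numbered in order without a break, so no line was dropped there after numbering. Such stretches of 100 kb or more numbered 83 on the autosomes (35.7 Mb). Their cause was not tested. A shorter one of 14.7 kb lay 27.6 kb beyond the 3′ end of Bahcc1.

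All 3 genes had a ratio several times the mean of all mapped fragments. The ratio was not calibrated to an amount of 5hmC. The ratio of Bahcc1 was 7.41 (6.28 to 8.80), from 1568 hMeDIP and 154 input fragments. Tnrc18 had 1957 and 220, a ratio of 6.48 (5.63 to 7.48). Gse1 had 7498 and 1113, a ratio of 4.90 (4.60 to 5.23). In that order the first 2 are not separated by counting error, with Bahcc1 over Tnrc18 at 1.14 (0.922 to 1.42), whereas Tnrc18 over Gse1 was 1.32 (1.13 to 1.54). Gse1 is the longest gene and its level was uneven. Its 3′ part alone reached 6.63, which over the whole of Tnrc18 was 1.02 (0.841 to 1.25) and over Bahcc1 0.895 (0.721 to 1.11). Most of that part lies in the 100 kb bin through which the rule took Gse1, so its height is not independent of the choice.

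The rule took the highest 100 kb bins, and ranks 3 to 5 belong to the members. The Gse1 bin, chromosome 8 from 123000001, lies wholly in the gene and stood at 6.19 (5.50 to 6.98). The Bahcc1 bin, chromosome 11 from 120100001, has 54.0% of its length in the gene and stood at 5.91 (5.18 to 6.77). The Tnrc18 bin, chromosome 5 from 143500001, has 79.5% in the gene and stood at 5.89 (5.18 to 6.72). The bin just outside the rule, rank 6 and on chromosome 4 from 154500001, was at 5.87 (5.27 to 6.57), so the edge of the rule separates values that counting error does not. The highest bins, on chromosome 8 from 119800001 and on chromosome 15 from 58800001, stood at 8.0 and 6.46 and were covered by peaks over 91.2% and 92.1% of their length, against 74.6%, 52.3% and 57.2% in the Gse1, Bahcc1 and Tnrc18 bins. The other bins of Gse1 ranked 28, 84, 290 and 722.

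Most 2 kb steps with enough input had a high ratio in each gene, though a step can span both peaks and the lower sequence between them. A step was counted as high when its ratio, with 1 fragment added in each library, was at least 2, among steps with at least 3 input fragments. In Gse1, 148 of 168 such steps were high, in Tnrc18 32 of 33 and in Bahcc1 22 of 24, against 13.9% of all autosomal steps. At 4-fold the counts were 89, 25 and 18, against 3.03% of autosomal steps. Steps at or under 1 numbered 1 in Gse1, 0 in Tnrc18 and 2 in Bahcc1, against 64.4% of autosomal steps. Steps of the flanks were high more often than the autosomal share too, in 20 of 43 upstream and 22 of 45 downstream of Gse1, 23 of 40 upstream of Tnrc18, and 37 of 49 upstream and 25 of 41 downstream of Bahcc1. This contrast chose the genes, so nothing is read from the excess. Steps left out for low input numbered 9 of 177 in Gse1, 14 of 47 in Tnrc18, of which 9 were empty, and 6 of 30 in Bahcc1, of which 1 was empty. The median step stood at 4.12 in Gse1, 5.34 in Tnrc18 and 5.70 in Bahcc1, and at 0.728 over all autosomal steps. Steps with enough input ran from 0.832 to 13.6 in Gse1, from 1.31 to 18.4 in Tnrc18 and from 0.728 to 17.4 in Bahcc1. Their SD on the log2 scale was 0.81, 0.81 and 1.09, where counting alone would give about 0.61, 0.60 and 0.62, so each gene varied inside beyond counting error, Bahcc1 the most by this measure.

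**Figure D1:**
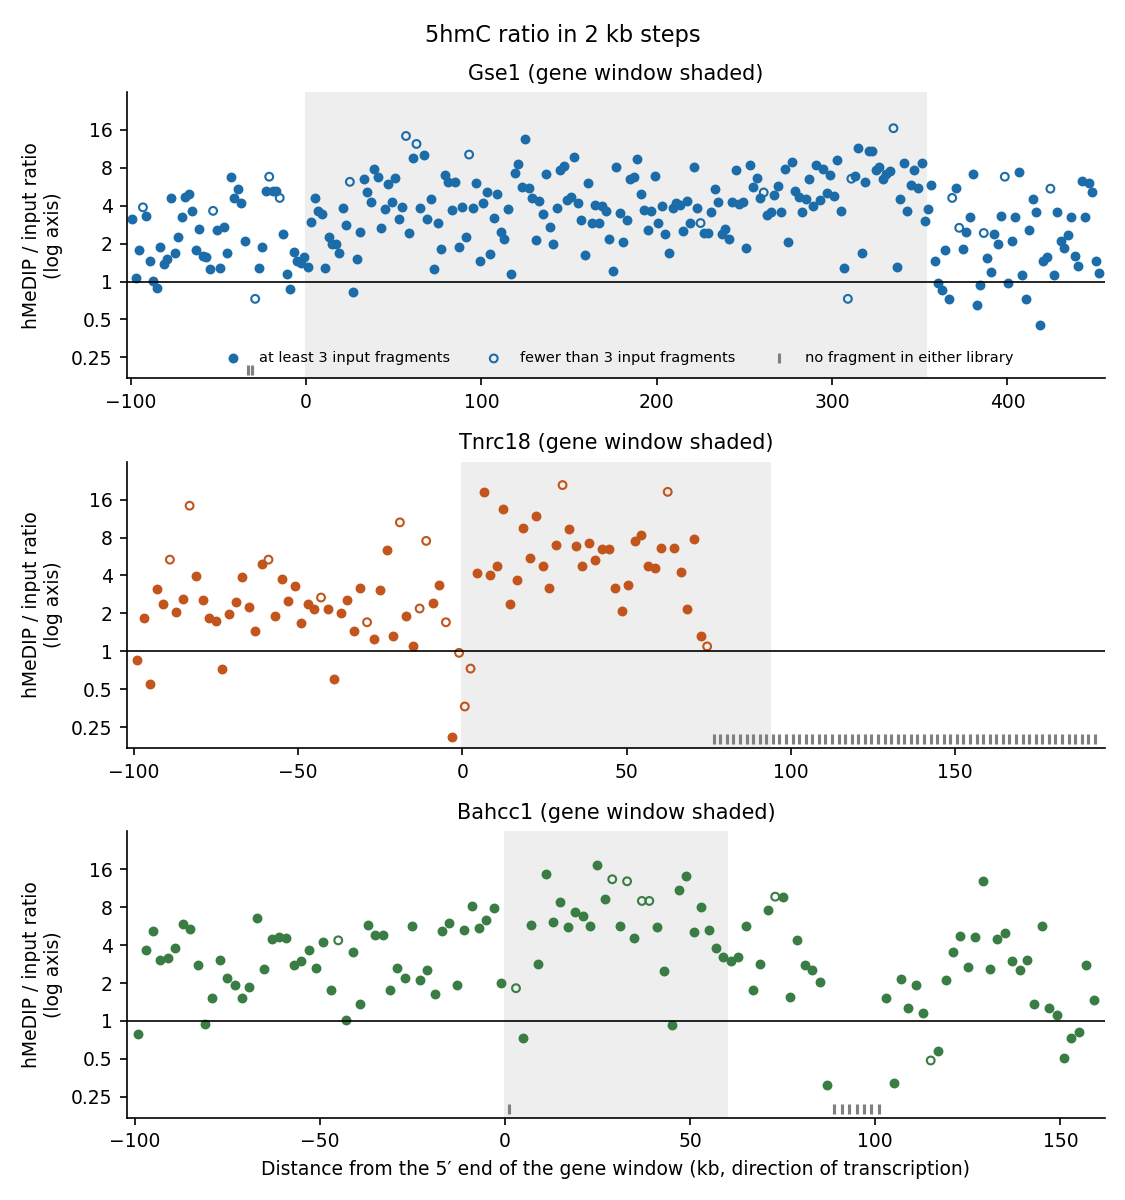
The plots show the hMeDIP over input ratio (log axis, 1 fragment added in each library) of 2 kb steps against distance from the 5′ end of each gene window in kb, with the window shaded; open points have fewer than 3 input fragments and grey ticks mark steps with no fragment in either library. Most steps inside the windows lie above 2 (148 of 168 in Gse1, 32 of 33 in Tnrc18 and 22 of 24 in Bahcc1 with enough input), steps outside are lower and more mixed, and the grey ticks at the right of Tnrc18 mark the stretch that could not be measured.

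Runs of high steps were broken by steps of low input as well as by low steps, so their lengths depend on the input minimum. The longest run of high steps with enough input in Gse1 covered 44 kb, chromosome 8, 123014001 to 123058000, in the later part of the gene. The longest in Tnrc18 covered 30 kb, chromosome 5, 143518001 to 143548000, and that in Bahcc1 22 kb, chromosome 11, 120100001 to 120122000, which starts 6 kb into the gene. Of 79599 runs on the autosomes, 63 reached 44 kb, 229 reached 30 kb and 571 reached 22 kb, and the longest reached 112 kb. With steps of low input kept, a choice made after the steps were seen, the runs grew to 54 kb in Gse1 (123004001 to 123058000), 68 kb in Tnrc18 (143508001 to 143576000) and 38 kb in Bahcc1 (120100001 to 120138000). They then held 1, 2 and 4 steps of low input, and 58, 28 and 169 of 91609 autosomal runs were as long. The Tnrc18 run covered nearly all of the part of the gene that could be measured.

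Each window was then divided, in the direction of transcription, into a 5′ part (20% of the length), a body (60%) and a 3′ part (20%). Gse1 had like means in its 5′ part and body and a higher one in its 3′ part. Its ratios were 4.40 (3.8 to 5.13), 4.50 (4.15 to 4.88) and 6.63 (5.77 to 7.65), from 207, 685 and 221 input fragments. The 3′ part over the body was 1.47 (1.26 to 1.73), and the 5′ part over the body 0.979 (0.828 to 1.16). Most of the 3′ part lies in the bin 123000001 to 123100000, through which the rule took Gse1. Its rise is therefore not independent of the choice of the gene. With the last 10 kb as the 3′ part its quotient was 1.40 (0.952 to 2.07), and with fragments in peaks left out it turned to 0.743 (0.523 to 1.06), both with intervals that include 1. In all fragments, the input density of the 3′ part was 0.968 of that of the body and the hMeDIP density 1.43 of it, so the difference lay in the antibody library.

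In Bahcc1 the parts could not be told apart within counting error, which also allows a 3′ rise as large as that of Gse1; the difference between the genes was not tested. Its 5′ part stood at 5.67 (3.70 to 9.08), its body at 7.80 (6.37 to 9.63) and its 3′ part at 7.48 (4.99 to 11.7), with 24, 104 and 26 input fragments. The 3′ part over the body was 0.959 (0.611 to 1.5), and the 5′ part over the body 0.727 (0.455 to 1.16). With the parts set to the first and last 10 kb, the 5′ value became 0.374 (0.222 to 0.631), because the step 120104001 to 120106000, with 100 and 4 fragments, then moves from the 5′ part to the body.

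Tnrc18 had 6.16 (4.56 to 8.49) in its 5′ part and 6.56 (5.60 to 7.73) in its body, a quotient of 0.938 (0.669 to 1.32), and no fragments in its 3′ part. When the measured 73.9 kb was divided in the same way, a choice made after seeing the gap, the 5′ part, body and last part stood at 7.35 (5.04 to 11.1), 6.42 (5.40 to 7.67) and 6.07 (4.43 to 8.50). The last part over the body was then 0.946 (0.662 to 1.35). Whether the true 3′ end of Tnrc18 resembles that of Gse1 or of Bahcc1 was not measured.

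**Figure D2:**
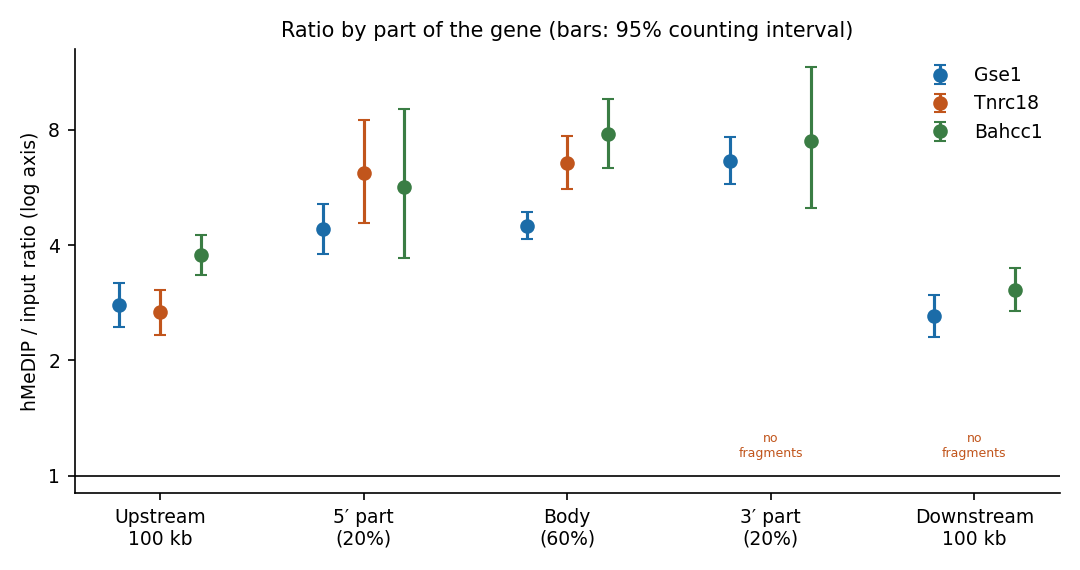
Points give the hMeDIP over input ratio (log axis) of the 100 kb flanks and of the 5′ part, body and 3′ part of Gse1, Tnrc18 and Bahcc1, and bars give the 95% counting interval. All measured gene parts lie above the flanks of their own gene as point values, Gse1 is highest in its 3′ part at 6.63, and Tnrc18 has no fragments in its 3′ part and downstream flank.

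The flanks were lower than the genes but still above the mean. For Gse1 the 100 kb upstream stood at 2.79 (2.45 to 3.18) and the 100 kb downstream at 2.61 (2.30 to 2.96), which is 0.568 (0.492 to 0.655) and 0.532 (0.463 to 0.612) of the gene. For Bahcc1 they stood at 3.77 (3.35 to 4.26) and 3.06 (2.69 to 3.49), or 0.509 (0.415 to 0.623) and 0.413 (0.335 to 0.509) of the gene. Upstream of Tnrc18 the ratio was 2.67 (2.33 to 3.06), or 0.412 (0.340 to 0.499) of the gene. The first measured 100 kb beyond the empty stretch, 143106837 to 143206836, stood at 1.58 (1.39 to 1.80), and it lies far from the gene. All 5 measured adjoining flanks were thus between 0.412 and 0.568 of their gene.

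The borders were described in stretches of 10 kb, and whether they differ in sharpness between genes was not tested. At the 3′ end of Gse1 the last 10 kb stood at 6.85 (4.66 to 10.4) and the next 10 kb at 2.86 (1.90 to 4.43). At the 3′ end of Bahcc1 the same steps gave 6.01 (3.89 to 9.72) and 3.31 (2.34 to 4.79). Their intervals overlap, which alone does not show that counting error leaves the values unseparated, and their quotient was not taken. The 10 kb after that returned to 7.28 (4.53 to 12.4). Another high stretch lay before the start of Bahcc1, where the 10 kb before the window stood at 7.15 (4.84 to 10.96), as high as the gene. Few fragments lay between it and the high stretch in the gene. The step 120092001 to 120094000 held 10 hMeDIP and 3 input fragments, and 120094001 to 120100000 held 10 and 7, a ratio of 1.04 (0.357 to 3.22). Before Gse1 and Tnrc18 the 10 kb next to the window stood at 1.55 (1.05 to 2.33) and 2.15 (1.31 to 3.66).

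In the order of RefSeq protein-coding genes, the nearest upstream neighbour of Bahcc1 is Slc38a10, a member of the sodium-coupled amino acid transporter family, and the next genes downstream are Actg1, which encodes gamma-actin, and Fscn2, a fascin that bundles actin. Tnrc18 has Fbxl18, Actb, which encodes beta-actin, and Fscn1 on its upstream side. The 2 related BAH genes thus each have an actin gene and a fascin gene among the 3 nearest genes on one side. Gse1 has Cibar2 upstream and Gins2, which encodes a subunit of the replicative helicase complex, downstream. These names come from another build and were not assigned to steps of the flanks.

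At their very starts Tnrc18 and Bahcc1 had few fragments of either library, and the extents given here were chosen after the steps were seen. The first 4 kb of Tnrc18 held 4 fragments with antibody and 6 without, which is 0.485 (0.101 to 2.05), and the 8 kb centred on the window's 5′ end held 8 and 14, a ratio of 0.416 (0.151 to 1.06). The next stretch, 4 to 10 kb into the gene, held 184 and 12, a ratio of 11.2 (6.24 to 22.0). Among steps with at least 3 input fragments it contains the highest of the gene, 143572001 to 143574000, with 100 hMeDIP and 3 input fragments. The change from scarce to dense hMeDIP fragments, from 1 to 30.7 per kb, thus fell within a few kb of the start, while input went from 1.5 to 2 per kb.

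The first 4 kb of Bahcc1 held 4 hMeDIP fragments and 1 input fragment, or 0.25 input fragments per kb, so its ratio of 2.91 (0.288 to 143) says nothing about the mark there. The lowest step of the gene with enough input followed, 120098001 to 120100000, where each library had 6 fragments (ratio 0.728, 0.195 to 2.72). From 10 to 30 kb into the gene the ratio was 10.2 (7.80 to 13.7), from 787 and 56 fragments. The promoter stretches of both genes printed above are rich in CpG. Whether base composition moved with the low counts on mm9 was not tested.

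Gse1 began differently. The first 4 kb of the Gse1 window were covered in both libraries, with 48 and 13 fragments and a ratio of 2.69 (1.43 to 5.41). The ratio was 4.61 (2.66 to 8.56) from 4 to 10 kb. A lower stretch lay 10 to 30 kb into the window, at 2.17 (1.62 to 2.95) from 185 and 62 fragments. Among steps with at least 3 input fragments it holds the lowest of the gene, 122778001 to 122780000, with 7 and 6 fragments. From 30 to 70 kb the ratio was 5.67 (4.67 to 6.94), so the low stretch lay between higher ones. Scarce fragments were also seen late in the window. The step 123060001 to 123062000 held 1 fragment of each library, below the input minimum.

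Finer division gives the highest part of each gene by point value only. Its interval overlaps that of the next highest part in each gene, and whether they differ was not tested. With the window in 10 equal parts, Gse1 went from 2.88 (2.32 to 3.60) in part 1 to 6.00 (4.88 to 7.46) in part 2, stayed between 4.10 and 4.65 in parts 3 to 7, and reached 5.26, 5.69 and 7.56 (6.22 to 9.27) in the last 3. In Bahcc1 part 1, with 10 and 7 fragments, was at 1.04 (0.357 to 3.22). Part 5 of Bahcc1 was the highest of its 10, at 16.5 (9.29 to 32.3) from 272 and 12 fragments, and part 8, at 3.98 (2.65 to 6.18), was low between point values of 9.10 and 9.67. Part 8 holds the step 120138001 to 120140000, at 0.936 (0.440 to 2.03) from 18 fragments with antibody and 14 without. In Tnrc18 the 8 parts with fragments ran from 3.58 (2.32 to 5.75) in part 8, at the edge of the empty stretch, to 9.15 (5.98 to 14.7) in part 4. Part 7 of Tnrc18 was close to that, at 7.74 (5.32 to 11.7).

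**Figure D3:**
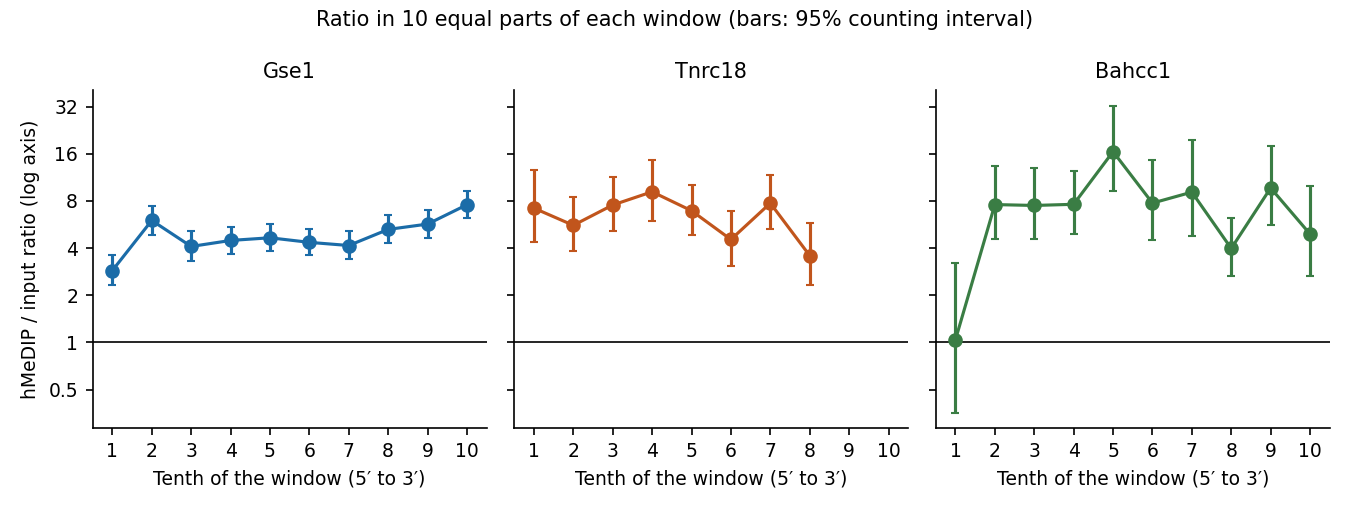
Points joined by lines give the hMeDIP over input ratio (log axis) in 10 equal parts of each gene window from 5′ to 3′, with 95% counting intervals as bars. Gse1 ends at its highest value, 7.56, Bahcc1 starts at 1.04 and is highest in part 5 at 16.5, and the last 2 parts of Tnrc18 hold no fragments.

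The authors' peak list, called on the same signal, gave the fine structure. It placed 107 peaks on Gse1, 24 on Tnrc18 and 18 on Bahcc1, which is 30.3, 25.7 and 30 per 100 kb against 3.73 on the autosomes. They covered 62.4%, 57.0% and 67.3% of the windows, and 72.2% of the measured part of Tnrc18, against 5.06% of the autosomes. Peaks were close together, with median gaps of 496, 436 and 382 bp between neighbours, against 3477 bp on the autosomes. They were also wider than usual, with medians of 1645, 1580 and 1960 bp against 1153 bp.

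The peak with the highest score in Bahcc1, chromosome 11, 120117403 to 120122952, ranked 23 of 92654 with a score of 1915.76 in the authors' list. Its ratio was 16.9 (9.54 to 33.2), from 279 and 12 fragments, and it lies 26.2 kb into the gene. The widest peak of Bahcc1, 120111109 to 120116884 (5776 bp), stood just before it at 8.56 (5.48 to 14.1). In Tnrc18 the same peak was both the highest in score and the widest, chromosome 5, 143513356 to 143522728 (9373 bp), rank 57, with 329 and 32 fragments and a ratio of 7.48 (5.20 to 11.1). In Gse1 the peak with the highest score, chromosome 8, 123073561 to 123081035, ranked 49, held 305 and 21 fragments, a ratio of 10.6 (6.79 to 17.3), and lay at 92.0% of the way through the window. The widest Gse1 peak, 122875570 to 122883254 (7685 bp), lay at 36.0% and stood at 5.44 (3.70 to 8.25).

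The positions of the strong peaks are a description, since the scores come from the same signal as the profile. The last 20% of the Gse1 window also lies mostly in the bin through which the rule took the gene. Of the 8 Gse1 peaks among the 1% of the list with the highest scores, 6 lay in the last 20% of the window, which held 18 of the 107 peaks, and so did 5 of its 6 peaks of 5 kb or more. Tnrc18 had 5 peaks and Bahcc1 4 peaks in that 1%. By midpoint, 0 of them lay in the last 20%, a part that could not be measured in Tnrc18. The Bahcc1 peak 120140528 to 120142779 (rank 337) has its midpoint at 79.4% and reaches into the last 20%.

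**Figure D4:**
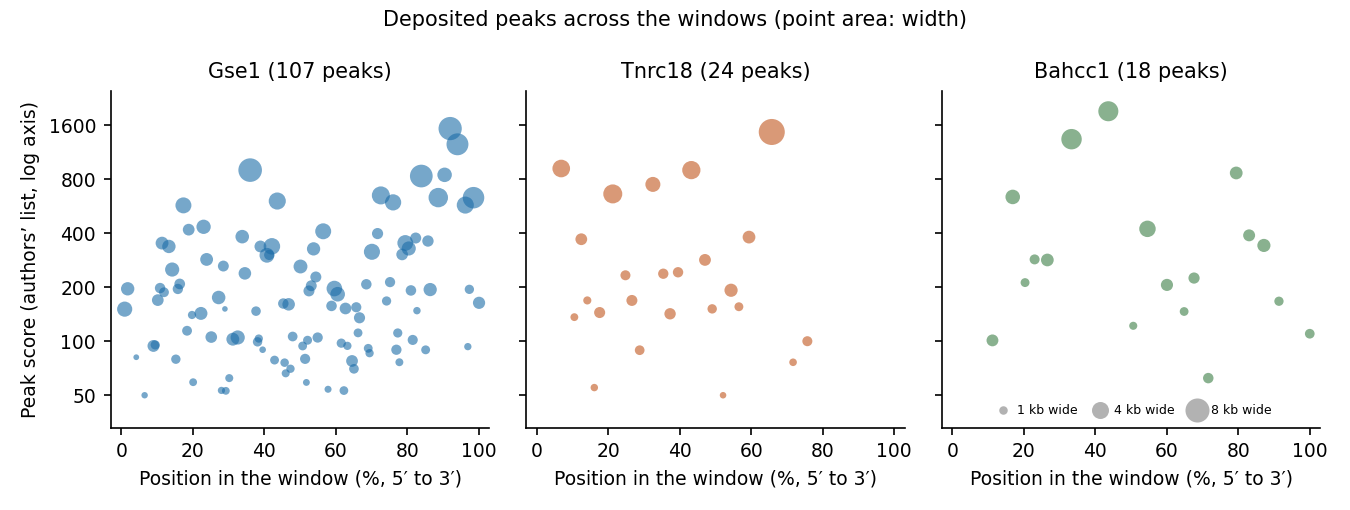
Each point is a deposited peak, placed by its position in the gene window in percent from 5′ to 3′ and by the score of the authors' list (log axis), with point area for width. In Gse1 the highest scores lie near the 3′ end, with the highest peak at 92.0%, and in Bahcc1 the peak with the highest score lies 26.2 kb into the 60 kb window.

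Between the peaks the ratio was far lower, which follows from calling peaks on this same signal and is a description only. Fragments outside peaks gave 1.91 (1.71 to 2.14) in Gse1, 1.22 (0.890 to 1.69) in Tnrc18 and 1.91 (1.34 to 2.79) in Bahcc1, against 0.765 (0.7646 to 0.7661) outside peaks on all autosomes. Peaks held 85.1%, 94.4% and 92.8% of the hMeDIP fragments of the 3 genes and 61.7%, 70.5% and 72.1% of their input fragments. Over all autosomes peaks held 28.7% of hMeDIP and 5.51% of input fragments. In the flanks outside peaks the ratio was 1.64 (1.39 to 1.94) upstream and 1.46 (1.25 to 1.72) downstream of Gse1, and 1.92 (1.61 to 2.29) and 1.32 (1.11 to 1.58) for Bahcc1. Upstream of Tnrc18 it was 1.88 (1.61 to 2.20), above the 1.22 between the peaks of the gene itself. The quotient was 1.54 (1.09 to 2.17), with 65 input fragments behind the value of the gene. Peaks had removed 94.4% of the hMeDIP fragments of Tnrc18 but 42.2% of those in this flank, so the 2 values are not alike. Peak cover of the 5 measured flanks was 17.9% to 44.9%, below that of each gene.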

How the data were processed

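Genomic DNA of kidney was compared between 1 hMeDIP and 1 input library. Per the submitters' processing notes, the authors used CASAVA and Bowtie 1.0.0 with build mm9. The deposited position files give stretches of 350 bp with a read count, and per the file headers the deposited peaks, with 1 score each, come from MACS. Not given in the sources used here: read filters, caller version, control, threshold. Each line was taken as 1 fragment, placed by its midpoint. Ratios have exact conditional binomial (Clopper-Pearson) 95% intervals, and quotients of ratios have intervals from the 4 counts on the log scale (Python 3.11.15, scipy 1.17.1). The intervals and the 2-fold rule for steps were tested on simulated counts. Named peaks and steps are, per gene, the highest in score, the widest, and the steps of highest and lowest ratio; any others were chosen after their values were seen. The genes and measures were chosen with earlier results of these data known. Alternatives covered scaling, read weight, extreme input, fragment length, peaks, extents, pseudocount and fold. Other genes of the BAH and CoREST groups were not analysed here, since no annotation on mm9 was used, and RefSeq (GRCm38.p6) gave names, strands and promoters only, with all 3 genes matched. Coordinates are 1-based.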

Additional observations from a re-analysis of the deposited data

Results flagged for a closer look

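The number of reads per position was not used in the ratios. In Gse1, 145 of 7498 hMeDIP positions (1.93%, 95% exact interval 1.63 to 2.27) held 2 or more reads, against 3 of 1113 input positions (0.270%, 0.0556 to 0.786), so the share lay above that of the input. The densities were unlike, at 21.2 hMeDIP and 3.15 input fragments per kb, so the shares were not compared at like density. Why they differ was not tested. Over all chromosomes the shares were 1.33% and 0.384%. In Tnrc18 they were 3.68% (2.89 to 4.61) and 0.909% (0.110 to 3.25), whose intervals overlap, and in Bahcc1 3.0% (2.21 to 3.97) against 0 of 154 input positions, which allows a share of up to 1.95% by 3 counts and 2.37% by the exact interval, so that these intervals overlap too. Overlap alone does not show that the shares are alike. Whether these 2 genes differ from Gse1 in this was not tested. Weighting by reads left the gene ratios at 4.93, 6.58 and 7.55 for Gse1, Tnrc18 and Bahcc1.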

How the results depend on the processing

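No paired analysis was possible because each group is 1 library. Scaling to fragments outside peaks raised the ratios of Gse1, Tnrc18 and Bahcc1 to 6.48, 8.55 and 9.79 and left all quotients as they were. Leaving out fragments in peaks, which removes the sequence chosen for its height, gave 1.91, 1.22 and 1.91. It turned the 3′ part over the body of Gse1 to 0.743 (0.523 to 1.06), the upstream flank over the gene to 1.54 (1.09 to 2.17) in Tnrc18 and that of Bahcc1 to 1.0016 (0.677 to 1.48). The flanks over Gse1 became 0.857 upstream and 0.764 downstream, the downstream flank over Bahcc1 0.691, the 5′ part over the body 0.449 in Tnrc18 and 1.70 in Bahcc1, and the 3′ part over the body of Bahcc1 2.04. With the first 10 kb as the 5′ part, the 5′ part over the body was 0.762 in Gse1 and 0.374 in Bahcc1. At 4-fold 89 Gse1 steps were high. The 50% of peaks with the highest scores covered 57.5%, 54.7% and 64.7% of Gse1, Tnrc18 and Bahcc1, and peaks wholly inside covered 66.2% of Bahcc1. All 13 values weighted by reads, all 13 without bins of extreme or no input and all 16 with fragments of 150 bp stayed within the main interval, or within 1.5 times the main count. Keeping steps of low input, chosen after seeing the data, lengthened the longest runs of Tnrc18 and Bahcc1 to 68 and 38 kb. The 3′ part and downstream flank of Tnrc18 gave no value under any alternative run. A 2 kb step held a median of 6 or 7 input fragments, which limits single steps most.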

Other observations

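The strand of the fragments was not used in any comparison. In Gse1 47.2% (46.1 to 48.3) of hMeDIP fragments lay on the plus strand and in Tnrc18 54.2% (51.9 to 56.4), against 50.02% over all chromosomes. In Bahcc1 the share was 48.5% (46.0 to 51.0). The input shares were 49.3% (46.3 to 52.3), 47.3% (40.5 to 54.1) and 55.8% (47.6 to 63.8).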
